A study of Mus musculus with 50 samples.

Results

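H19 and 8 other imprinted genes (Igf2, Meg3, Cdkn1c, Peg3, Plagl1, Grb10, Mest and Ndn) were followed in the left ventricle of LARP6 transgenic and wild-type mice. The 9 genes were taken by symbol from the 35717 genes of the deposited expression table, and each symbol matched 1 gene. The genes were chosen by measured values: H19 by its lower level after angiotensin II in transgenic hearts, and the others as imprinted genes of the same table. That contrast is therefore described here and not tested.

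The series measured RNA by sequencing in 50 left ventricles of mice on the C57BL/6J background, 40 weeks old. Transgenic mice (Tg) overexpressed LARP6, an RNA-binding protein known for binding collagen mRNAs, in cardiomyocytes, and controls were wild-type littermates (WT). Over 21 days, mice of either genotype were given angiotensin II (Ang II), a vasoconstrictor that loads the heart, at 1000 ng/kg/min, or sterile saline. There were 25 libraries of each genotype: 11 with saline and 14 with Ang II among WT, and 12 with saline and 13 with Ang II among Tg, each holding 5 to 7 libraries of each sex. The promoter that drives the transgene and the number of founder lines are not given in the sources used here. Each library was read as a different animal because every library number occurs once.

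Imprinted genes are expressed mainly from the copy inherited from one parent, under methylation marks set in egg or sperm. Many act on growth before birth and are turned down in most tissues after it, and several return in injured or dividing tissue. H19 is a maternally expressed long noncoding RNA, and its paternally expressed neighbour Igf2 encodes insulin-like growth factor 2; both are known to share enhancers in mesodermal tissues. The files give 1 level per gene and do not separate the parental copies, so imprinting itself was not measured. In tissue RNA, fewer cells of a type and less RNA per cell cannot be told apart.

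Of the 9 genes, 5 lie on chromosome 7. H19 (ENSMUSG00000000031, 142575529 to 142578143, minus strand, GRCm38), Igf2 (ENSMUSG00000048583, 142650766 to 142666816, minus strand) and Cdkn1c (ENSMUSG00000037664, 143458339 to 143461050, minus strand) stand near its end. The gap from H19 to Igf2 is 72.6 kb and that from Igf2 to Cdkn1c is 792 kb. Peg3 (ENSMUSG00000002265, 6703892 to 6730421, minus strand) and Ndn (ENSMUSG00000033585, 62346569 to 62350262, plus strand) lie elsewhere on the chromosome. The others are Mest on chromosome 6 (ENSMUSG00000051855, 30723547 to 30748462, plus strand), Plagl1 on chromosome 10 (ENSMUSG00000019817, 13060504 to 13130982, plus strand), Grb10 on chromosome 11 (ENSMUSG00000020176, 11930508 to 12037401, minus strand) and Meg3 on chromosome 12 (ENSMUSG00000021268, 109541001 to 109571721, plus strand).

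Among the 9 genes, 4 are hosts of a microRNA, which is cut from their transcript. These are shown because the host's level says nothing by itself of the mature microRNA, which poly(A) libraries do not measure. The H19 hairpin lies at chr7:142577064-142577147 on the minus strand of GRCm38.p6, and both mature forms lie in an exon of 3 of the 7 annotated H19 transcripts. In its hairpin the capitals mark both mature arms, and in the mature forms they mark the seed, bases 2 to 8 from the 5′ end, which pairs with target mRNAs. The sequences are those of RefSeq.
microRNA 675: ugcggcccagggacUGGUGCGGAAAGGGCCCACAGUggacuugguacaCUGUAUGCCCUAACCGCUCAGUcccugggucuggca
mmu-miR-675-5p (H19): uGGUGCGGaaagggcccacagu
mmu-miR-675-3p (H19): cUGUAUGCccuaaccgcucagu
mmu-miR-483-5p (Igf2): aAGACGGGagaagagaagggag
mmu-miR-483-3p (Igf2): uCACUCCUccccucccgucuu
mmu-miR-335-5p (Mest): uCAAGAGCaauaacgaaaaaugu
mmu-miR-335-3p (Mest): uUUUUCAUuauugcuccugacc
mmu-miR-770-5p (Meg3): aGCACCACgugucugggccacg
mmu-miR-770-3p (Meg3): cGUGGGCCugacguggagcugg
No seed occurs in more than 1 of these 8 mature forms. In the deposited table the row of Mir675 held a count of 1 or 2 in every library, and those of Mir483, Mir335 and Mir770 held between 0 and 2.

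Promoter windows from RefSeq (GRCm38.p6, 300 bases that end 50 bases after the start site) were found for 7 of the 9 genes, all but H19 and Cdkn1c. Shown are those of the 4 genes with a window of which a tested difference passed in a treatment or genotype comparison below (the first window of Grb10) and the first window of Meg3, which differed between sexes. Capitals mark every match, on either strand, to GGGGCCCC (the known binding motif of Plagl1), TGACGTCA (the cyclic AMP response element), TATAAA (the TATA box) and GGGCGG (the GC box), so a GC box on the other strand shows as its complement. Matches that touch or overlap run together.
Peg3, chr7:6730370-6730669, minus strand: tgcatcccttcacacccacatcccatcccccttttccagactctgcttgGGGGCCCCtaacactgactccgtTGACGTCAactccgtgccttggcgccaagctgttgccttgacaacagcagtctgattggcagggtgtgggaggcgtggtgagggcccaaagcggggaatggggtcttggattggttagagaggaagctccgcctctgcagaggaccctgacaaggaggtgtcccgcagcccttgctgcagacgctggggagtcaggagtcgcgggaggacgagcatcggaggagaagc
Plagl1, chr10:13090582-13090881, plus strand: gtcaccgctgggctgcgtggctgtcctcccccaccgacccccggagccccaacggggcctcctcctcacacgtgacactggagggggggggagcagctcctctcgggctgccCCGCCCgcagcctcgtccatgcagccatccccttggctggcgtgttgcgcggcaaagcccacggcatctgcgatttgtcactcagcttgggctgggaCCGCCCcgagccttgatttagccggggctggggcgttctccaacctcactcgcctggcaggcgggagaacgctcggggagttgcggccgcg
Ndn, chr7:62348027-62348326, plus strand: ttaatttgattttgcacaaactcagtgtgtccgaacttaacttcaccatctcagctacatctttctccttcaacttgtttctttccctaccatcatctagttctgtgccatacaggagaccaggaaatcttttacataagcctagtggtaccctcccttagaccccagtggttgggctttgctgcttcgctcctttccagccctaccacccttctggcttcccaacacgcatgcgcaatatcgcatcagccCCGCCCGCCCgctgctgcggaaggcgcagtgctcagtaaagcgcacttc
Grb10, chr11:12037371-12037670, minus strand: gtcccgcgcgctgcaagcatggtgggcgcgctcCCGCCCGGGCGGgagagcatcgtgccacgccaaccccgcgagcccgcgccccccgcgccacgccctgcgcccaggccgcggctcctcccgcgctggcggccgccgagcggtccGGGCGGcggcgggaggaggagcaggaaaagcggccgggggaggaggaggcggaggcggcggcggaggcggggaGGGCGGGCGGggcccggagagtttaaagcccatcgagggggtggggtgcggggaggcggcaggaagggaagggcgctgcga
Meg3, chr12:109540746-109541045, plus strand: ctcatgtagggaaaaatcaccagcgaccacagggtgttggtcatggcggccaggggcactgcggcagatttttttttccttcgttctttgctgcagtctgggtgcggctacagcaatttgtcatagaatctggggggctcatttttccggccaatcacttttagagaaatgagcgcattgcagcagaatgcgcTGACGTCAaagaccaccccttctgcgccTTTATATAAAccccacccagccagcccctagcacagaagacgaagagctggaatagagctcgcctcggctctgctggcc
Peg3 held 1 GGGGCCCC and 1 TGACGTCA, which occur in 1.08% and 1.79% of the 32851 windows of the table. Meg3 held 1 TGACGTCA and 2 overlapping TATAAA matches, a motif found in 13.6% of windows. GGGCGG, present in 35.7% of windows, occurred 2 times in Plagl1, 2 times in Ndn and 5 times in Grb10. The Grb10 window held 45 CG dinucleotides and was 80.0% G or C, the Plagl1 window held 26 CG and the Ndn window 11, beside a median of 7 and an upper quartile of 20 over all windows. The Ndn and Plagl1 windows lie inside the genes' intervals as deposited, not at their outer ends. A match is a string of letters, and binding was not measured.

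Levels are given as scaled FPKM, the authors' FPKM (fragments scaled to transcript length and library size) divided by 1 factor per library, so genes can be compared per length. Over all 50 libraries, the order of mean levels was Grb10 (7.57 ± 1.11 SD), Cdkn1c (4.99 ± 1.61), H19 (4.89 ± 1.53), Igf2 (2.09 ± 0.59), Ndn (1.17 ± 0.297), Mest (1.17 ± 0.484), Peg3 (0.495 ± 0.10), Meg3 (0.411 ± 0.0722) and Plagl1 (0.331 ± 0.124). Cdkn1c and H19 differed by less than their spread, as did Ndn and Mest. Neighbours among Peg3, Meg3 and Plagl1 differed by less than the larger SD of the pair, and Peg3 and Plagl1 by more. The median counts behind these levels ran from 181 for Plagl1 to 5030.5 for Grb10.

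The main fit covered the 11628 genes that reached an unscaled FPKM of 1 in 5 or more libraries. H19, Cdkn1c and Grb10 reached that level in all 50 libraries, Igf2 in 49, Ndn in 32 and Mest in 27. Meg3, Peg3 and Plagl1 reached it in 0 libraries, so their tests come from a second fit over 23610 genes with a mean count of at least 1. Each difference is given on the log2 scale with its standard error (SE), from edgeR's quasi-likelihood test. P-values were adjusted over all genes of the fit (Benjamini-Hochberg), and a difference is named as called where this fell under 0.05.

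Total counts ran from 53877439 to 91579342 per library, of which 28.1% to 38.8% fell on mitochondrial genes. The summed level of 8 cardiomyocyte markers was 12500 to 17400 scaled FPKM, while 3 atrial markers summed to 0.138 to 1.17 and 8 skeletal muscle markers to 0.466 to 1.41. Larp6 was 443 to 1630 scaled FPKM in the 25 libraries labelled Tg and 5.59 to 63.5 in 24 of the 25 labelled WT. The remaining library labelled WT, library 329 (an Ang II male), stood at 1000, and the letters of its column in the table name the other genotype. The letters of library 847, an Ang II male labelled Tg, name WT, but its Larp6 level was 1120. Both were kept under their labels, and calls that change without them are given with that value.

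H19 levels after Ang II sat toward the low end of those under saline, which in transgenic hearts is the difference that chose the gene. In WT saline hearts H19 stood at 3.36 at the lowest, 6.08 at the median and 8.28 at the highest scaled FPKM. In WT Ang II hearts it stood at 2.21, 4.74 and 8.05. In Tg saline hearts it stood at 3.95, 5.15 and 8.27, and in Tg Ang II hearts at 2.76, 3.91 and 4.89. The groups overlapped, but all 13 Tg Ang II libraries lay below the median of the Tg saline libraries and 7 of them below the lowest. Of the 14 WT Ang II libraries, 13 lay below the WT saline median and 3 below the lowest.

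**Figure D1:**
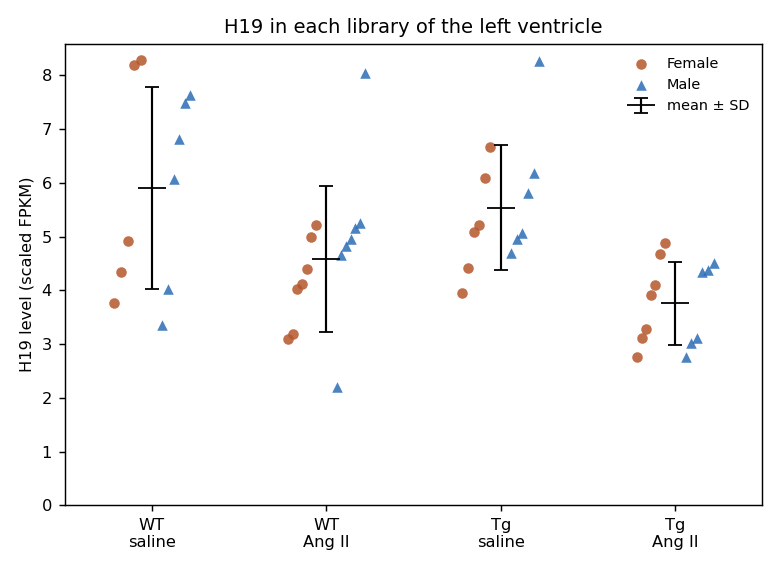
H19 level in scaled FPKM on the y axis for each of the 50 libraries, by genotype and treatment on the x axis, with females as circles, males as triangles and bars for the mean ± SD. The 13 Tg Ang II libraries end at 4.89, while the other groups reach 8.05 to 8.28.

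WT hearts averaged 5.90 ± 1.88 (SD, n = 11) under saline and 4.58 ± 1.36 (n = 14) under Ang II. Tg hearts averaged 5.54 ± 1.17 (n = 12) and 3.76 ± 0.769 (n = 13). The coefficient of variation was 31.8% and 29.6% in the WT groups and 21.0% and 20.5% in the Tg groups.

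In transgenic hearts the Ang II difference of H19 was -0.56 ± 0.15 (SE) on the log2 scale, with -0.46 ± 0.18 in females alone and -0.66 ± 0.23 in males alone. In wild-type hearts, which did not enter the choice, it was -0.37 ± 0.15 and was not called (adjusted p = 0.075, edgeR). Of the 50 fits that left out 1 library, 4 called it. These left out library 234, 488, 719 or 846 and gave -0.42 to -0.45 with adjusted p between 0.026 and 0.05. Without library 239, the highest WT saline library, it was -0.29 (adjusted p = 0.17). Library 234, a WT Ang II male at 8.05, stood highest in its group. The WT difference was -0.51 ± 0.19 in females (adjusted p = 0.11) and -0.23 ± 0.22 in males (adjusted p = 0.57). The Ang II differences in Tg and WT hearts were -0.19 ± 0.21 apart, less than 1 SE, with 0.05 ± 0.26 in females and -0.42 ± 0.32 in males.

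By genotype no H19 difference was called. Under saline, Tg and WT hearts differed by -0.09 ± 0.16 (adjusted p = 0.66, edgeR), and none of the 12 Tg libraries lay outside the WT range. The sign was positive with library size alone and with limma, which ran on FPKM as deposited and so also without the factor per library. Under Ang II the difference was -0.28 ± 0.14 (adjusted p = 0.14), and 12 of the 13 Tg libraries lay below the WT median. Without library 159, the lowest WT Ang II library at 2.21, the latter was called at -0.34 (adjusted p = 0.043). That was the only 1 of the 50 fits with 1 library left out to call it. Without library 234 it was -0.20 (adjusted p = 0.29). Both genotype comparisons use Tg libraries that also entered the contrast by which H19 was chosen. Females and males did not differ beyond the threshold (-0.09 ± 0.11, adjusted p = 0.67).

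Marker genes of other cells moved in the same comparison. With Ang II in Tg hearts, 6 of 10 resident fibroblast markers were called lower and 0 higher (median log2 fold change -0.38), beside 4.04% of all genes lower and 4.88% higher, and their summed level was 475 to 703 scaled FPKM in Tg saline and 315 to 605 in Tg Ang II hearts. In WT hearts 2 of the 10 were called higher and 2 lower, with sums of 364 to 477 under saline and 293 to 463 under Ang II. Of 5 myofibroblast markers tested in Tg hearts, 3 were called higher with Ang II and 0 lower (median 0.58). Of 8 cardiomyocyte markers, 2 were higher and 0 lower (median -0.05). Within groups, H19 and the fibroblast sum had a Pearson correlation of 0.24 and a Spearman correlation of 0.31 over 50 libraries. H19 correlated with the cardiomyocyte sum at 0.28, the low skeletal muscle sum at 0.35 and the myofibroblast sum at 0.11 (Pearson). No fibroblast marker was at 0 in all libraries, and the part of any of these cell types in the H19 difference was not tested.

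Igf2, the growth factor encoded beside H19, was low but measured. It stood at 1.91, 2.46 and 3.85 scaled FPKM (lowest, median, highest) in WT saline hearts and at 1.46, 2.03 and 2.64 in WT Ang II hearts. In Tg saline hearts it stood at 1.56, 2.07 and 2.77, and in Tg Ang II hearts at 0.101, 1.74 and 2.91. The groups overlapped, and 13 of 14 WT Ang II libraries lay below the WT saline median, as for H19. Igf2 was not called with Ang II in WT hearts (-0.40 ± 0.19, adjusted p = 0.14), between genotypes under saline (-0.31 ± 0.20, adjusted p = 0.22) or between genotypes under Ang II (-0.23 ± 0.19, adjusted p = 0.37).

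The value of 0.101 belongs to 1 library, library 238, a Tg Ang II female. It held an Igf2 count of 47, beside 541 to 2022 in the other 49 libraries. The same library held a count of 550 under Gm49394 (ENSMUSG00000115302, chromosome 7, 142650769 to 142669942, minus strand), an annotated protein-coding gene that overlaps Igf2 on the same strand, and Gm49394 had a count of 0 in all 49 others. Added together, both rows gave 597 in library 238, or 1.58 scaled FPKM, inside the range of the other libraries.

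**Figure D2:**
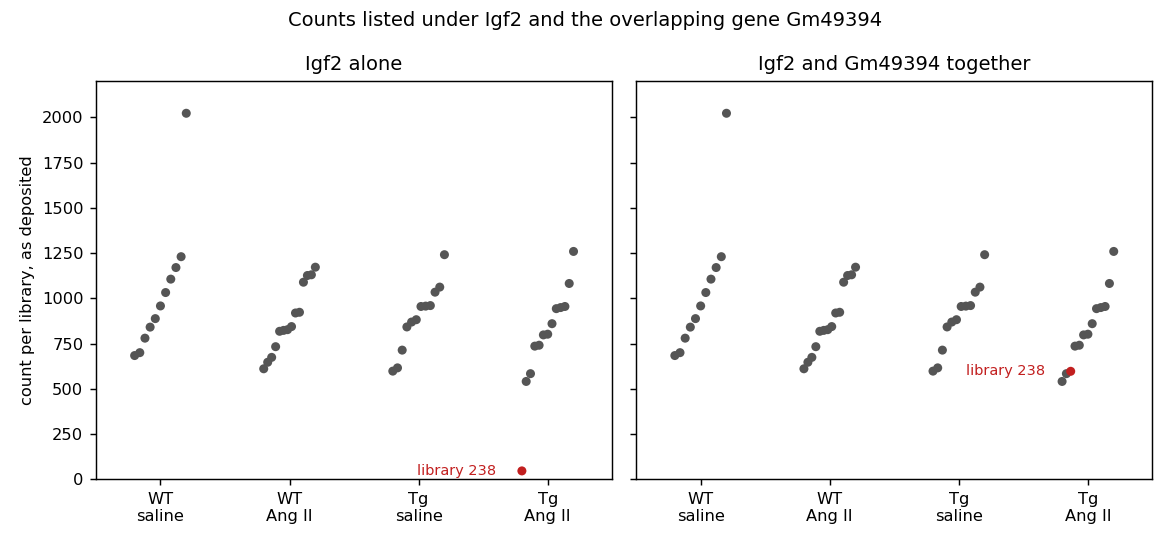
Deposited counts per library on the y axis by genotype and treatment on the x axis, for Igf2 alone on the left and for Igf2 and Gm49394 together on the right, with each point 1 library. Library 238, in red, moves from 47 to 597, inside the range of the other Tg Ang II libraries.

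With both rows counted as 1 gene, a choice made after these values were seen, Igf2 was called lower with Ang II in WT hearts (-0.40 ± 0.12, adjusted p = 0.014) and lower in Tg than WT hearts under saline (-0.31 ± 0.12, adjusted p = 0.040). Leaving out library 238 gave -0.40 (adjusted p = 0.013) and -0.31 (adjusted p = 0.037). With both rows joined, the genotype difference under Ang II was -0.16 ± 0.11 (adjusted p = 0.32), and the Ang II difference in Tg hearts, given as a description, was -0.24 ± 0.12. The fold changes of the called comparisons stayed at -0.40 and -0.31 while the standard error went from 0.19 and 0.20 to 0.12. The 2 comparisons share the WT saline libraries.

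Around Igf2, 26 genes within 1000 kb on either side had a mean count of at least 10. Library 238 was the lowest of the 50 libraries in 3 of them: Igf2, Kcnq1ot1 and Cdkn1c. Kcnq1ot1 stood there at 82.3% and Cdkn1c at 97.3% of the next lowest library, against 8.24% for Igf2. H19 in library 238 was 3.12 scaled FPKM, inside its group. Of the 11628 genes tested, 65 had some library at under 20% of the next lowest, and library 238 was that library for 2 of them, Igf2 and Vkorc1l1.

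Cdkn1c, which encodes the cell cycle inhibitor p57Kip2 and is maternally expressed, was lower in transgenic hearts under both treatments. It stood at 4.35, 6.44 and 7.88 scaled FPKM in WT saline and at 3.21, 4.11 and 6.42 in Tg saline hearts. Under Ang II it stood at 3.72, 5.51 and 9.09 in WT and at 2.44, 3.47 and 6.09 in Tg hearts. All 12 Tg saline libraries lay below the WT saline median and 8 below the lowest WT library, and under Ang II 9 of 13 Tg libraries lay below the lowest WT library.

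**Figure D3:**
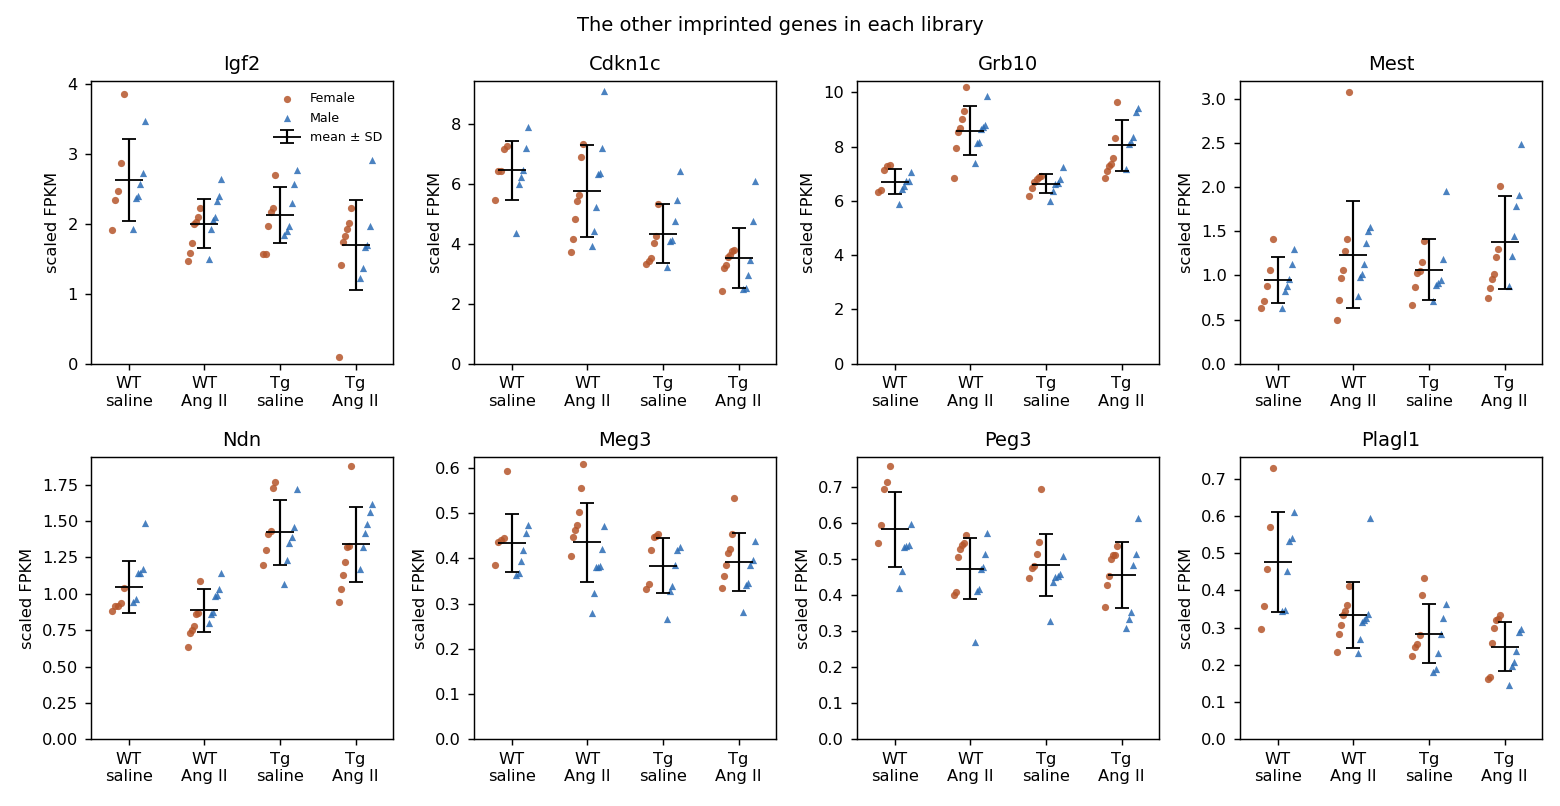
Level in scaled FPKM on the y axis of the other 8 imprinted genes for each library, by genotype and treatment on the x axis, with females as circles, males as triangles and bars for the mean ± SD; each panel has its own scale from 0. Cdkn1c and Plagl1 are lower and Ndn is higher in both Tg groups, and Grb10 is higher in both Ang II groups.

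The difference between Tg and WT was -0.58 ± 0.14 under saline (adjusted p = 0.00078) and -0.69 ± 0.13 under Ang II (adjusted p = 3.8e-05). Under saline it was -0.71 ± 0.15 in females alone (adjusted p = 0.0011) and -0.44 ± 0.22 in males alone (adjusted p = 0.16). A test of that sex difference gave an adjusted p of 0.93. Ang II differences were -0.17 ± 0.13 in WT hearts (adjusted p = 0.40) and, as a description, -0.29 ± 0.13 in Tg hearts.

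Endothelial markers were called lower in the same comparisons. Of 9 endothelial markers, 8 were called lower and 0 higher in Tg hearts under saline (median -0.41), and 8 lower and 0 higher under Ang II (median -0.30), beside 20.2% and 16.4% of all genes called lower. Their sum was 173 to 311 scaled FPKM in WT saline and 138 to 222 in Tg saline hearts, and 196 to 296 in WT and 158 to 226 in Tg hearts under Ang II. Within groups its correlation with Cdkn1c was 0.24 (Pearson) and 0.25 (Spearman) over 50 libraries. Mural markers were called lower too, 6 of 8 under saline and 5 of 8 under Ang II, with 2 higher in each. Of 8 cardiomyocyte markers, 5 were called lower and 1 higher in each. Resident fibroblast markers were instead higher (9 of 10 called under saline, 5 under Ang II). Cdkn1c correlated with the mural sum at 0.26, the cardiomyocyte sum at 0.02 and the resident fibroblast sum at 0.31 (Pearson). None of the 9 endothelial markers was at 0 throughout, and the part of any of these cell types in the difference was not tested.

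Plagl1, a zinc finger transcription factor that is known to regulate H19, Igf2 and Cdkn1c, was the lowest of the 9 in level. It stood at 0.297, 0.458 and 0.73 scaled FPKM in WT saline hearts, at 0.232, 0.322 and 0.595 in WT Ang II, at 0.182, 0.268 and 0.433 in Tg saline and at 0.147, 0.258 and 0.335 in Tg Ang II hearts. All 12 Tg saline libraries lay below the WT saline median, and 13 of 14 WT Ang II libraries did. In the fit over 23610 genes it was lower in Tg than WT hearts under saline (-0.76 ± 0.16, adjusted p = 0.00032) and under Ang II (-0.43 ± 0.15, adjusted p = 0.036), and it fell with Ang II in WT hearts (-0.51 ± 0.15, adjusted p = 0.025). The call under Ang II was lost without any 1 of 9 libraries, with adjusted p up to 0.099 (library 234), and with a block for clusters of library numbers (-0.36, adjusted p = 0.067). The call for Ang II in WT hearts was lost without library 239 (-0.42, adjusted p = 0.078), 776 or 968 (adjusted p = 0.052 and 0.051). Library 234 was the highest WT Ang II library for Plagl1 as well as for H19, and library 239 the highest WT saline library for both.

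Ndn, which encodes necdin, a growth suppressor of neurons and mesenchymal cells that is paternally expressed, was higher in transgenic hearts. It stood at 0.883, 0.966 and 1.49 scaled FPKM in WT saline, at 0.638, 0.865 and 1.14 in WT Ang II, at 1.07, 1.40 and 1.77 in Tg saline and at 0.943, 1.32 and 1.88 in Tg Ang II hearts. All 12 Tg saline libraries lay above the WT saline median, and under Ang II 10 of 13 Tg libraries lay above the highest WT library. The difference between Tg and WT was 0.45 ± 0.10 under saline (adjusted p = 0.00018) and 0.60 ± 0.09 under Ang II (adjusted p = 8.2e-07). Under saline it was 0.65 ± 0.15 in females alone (adjusted p = 0.0025) and 0.26 ± 0.12 in males alone (adjusted p = 0.14), and the test of that sex difference gave 0.39 ± 0.19 with an unadjusted p of 0.049 and an adjusted p of 0.87. Ang II in WT hearts gave -0.23 ± 0.09 (adjusted p = 0.078). It was called in 1 of the 50 fits that left out 1 library, that without library 779 (-0.27, adjusted p = 0.036). The Ang II difference in Tg hearts, as a description, was -0.08 ± 0.09.

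Resident fibroblast markers were higher in Tg hearts as well, with 9 of 10 called higher and 0 lower under saline (median 0.47) and 5 higher and 0 lower under Ang II (median 0.27), beside 20.4% and 16.4% of all genes called higher. Their sum was 364 to 477 scaled FPKM in WT saline and 475 to 703 in Tg saline hearts. Macrophage markers were called higher in 8 of 8 cases under saline (median 0.82) and 6 of 8 under Ang II (median 0.36), with sums of 97.2 to 126 in WT saline and 150 to 423 in Tg saline hearts. Of 5 myofibroblast markers tested, 4 were called higher and 0 lower under saline (median 1.7), and 3 higher and 0 lower under Ang II (median 0.57). Within groups Ndn and the fibroblast sum correlated at 0.18 (Pearson) and 0.13 (Spearman), and Ndn and the macrophage sum at 0.21 and 0.22. Ndn and the myofibroblast sum correlated at 0.26 and 0.23. The part of any of these cell types in the Ndn difference was not tested.

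Grb10, an adaptor protein that binds the insulin and IGF-1 receptors and dampens their signalling, rose with Ang II in wild-type hearts. It stood at 5.89, 6.72 and 7.33 scaled FPKM in WT saline and at 6.83, 8.66 and 10.2 in WT Ang II hearts, and 13 of the 14 Ang II libraries lay above the highest saline library. In Tg hearts it stood at 5.99, 6.67 and 7.26 under saline and at 6.85, 8.10 and 9.64 under Ang II, and 10 of 13 Ang II libraries lay above the highest saline library. The WT difference was 0.35 ± 0.05 (adjusted p = 5.7e-06), with 0.33 ± 0.08 in females (adjusted p = 0.021) and 0.38 ± 0.07 in males (adjusted p = 0.0025). In Tg hearts it was 0.28 ± 0.05, given as a description, and the Tg and WT differences were -0.07 ± 0.07 apart. Its coefficient of variation within groups, 5.21% to 11.7%, was below that of the other 8 genes in each group. Of 5 myofibroblast markers tested, 4 were called higher and 0 lower with Ang II in WT hearts (median 1.55), beside 9.71% of all genes higher. The summed level of the 6 listed was 10.1 to 15.3 scaled FPKM in WT saline and 13.8 to 95.1 in WT Ang II hearts, and within groups it correlated with Grb10 at 0.36 (Pearson) and 0.16 (Spearman). Their part in the Grb10 difference was not tested.

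No genotype difference of Grb10 was called, with -0.02 ± 0.05 under saline (adjusted p = 0.81) and -0.09 ± 0.05 under Ang II (adjusted p = 0.17). The saline value took the other sign in males alone and under library size alone or limma, neither of which used the factor per library. It was 0 with a block for clusters of library numbers. Without library 238, the highest Tg Ang II library for Grb10 at 9.64, the difference under Ang II was called (-0.12, adjusted p = 0.045). That was the only 1 of the 50 fits with 1 library left out to call it.

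Mest, a paternally expressed hydrolase gene of the mesoderm, varied between animals of a group with a coefficient of variation of 27.2% to 49.5%. It stood at 0.629, 0.884 and 1.41 scaled FPKM in WT saline, at 0.491, 1.09 and 3.07 in WT Ang II, at 0.659, 0.991 and 1.96 in Tg saline and at 0.749, 1.22 and 2.49 in Tg Ang II hearts. None of its tests passed: Ang II in WT hearts gave 0.38 ± 0.20 (adjusted p = 0.20), genotype under saline 0.17 ± 0.21 (adjusted p = 0.56) and genotype under Ang II 0.15 ± 0.19 (adjusted p = 0.60). The Ang II difference in Tg hearts was 0.36 ± 0.20. Within groups Mest correlated with the endothelial sum at 0.57 (Pearson and Spearman) and with the cardiomyocyte sum at -0.51 and -0.49. Copg2, which overlaps Mest on the opposite strand, had counts of 1474 to 3252, and whether counting used the strand is not given in the sources used here, so Mest is uncertain to that extent.

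Peg3, a paternally expressed zinc finger gene, stood at 0.421, 0.545 and 0.759 scaled FPKM in WT saline, at 0.27, 0.491 and 0.573 in WT Ang II, at 0.329, 0.467 and 0.694 in Tg saline and at 0.309, 0.484 and 0.614 in Tg Ang II hearts. In the fit over 23610 genes it was called lower with Ang II in WT hearts (-0.30 ± 0.10, adjusted p = 0.045) and lower in Tg hearts under saline (-0.28 ± 0.10, adjusted p = 0.038), comparisons that share the WT saline libraries. Both calls were near the threshold: they were lost in 13 and 11 of the 50 fits that left out 1 library, with adjusted p of at most 0.086 and 0.075. Library 329, whose Larp6 level went against its label, held the lowest Peg3 level of all at 0.27, and without libraries 329 and 847 the WT Ang II difference was -0.25 (adjusted p = 0.063). With the block for clusters of library numbers it was -0.23 (adjusted p = 0.14). Genotype under Ang II gave -0.06 ± 0.09 (adjusted p = 0.75), and -0.17 ± 0.09 without libraries 329 and 847 (adjusted p = 0.18).

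Meg3, a maternally expressed long noncoding RNA, was called between sexes and in no other comparison. It stood at 0.333, 0.445 and 0.607 scaled FPKM in the 25 female libraries and at 0.266, 0.382 and 0.474 in the 25 male libraries. Females were higher by 0.22 ± 0.06 (adjusted p = 0.034, fit over 23610 genes), a call lost without any 1 of 9 libraries (adjusted p of up to 0.065, without library 239), with the block for clusters of library numbers (0.23, adjusted p = 0.13) and without libraries 329 and 847 (0.19, adjusted p = 0.069). Peg3 gave the same fold change between sexes, 0.22 ± 0.07, and was not called (adjusted p = 0.085); without libraries 329 and 847 it was (0.23, adjusted p = 0.037). Ang II in WT hearts gave -0.01 ± 0.08 for Meg3 (adjusted p = 0.98), and genotype gave -0.19 ± 0.09 under saline (adjusted p = 0.12) and -0.15 ± 0.08 under Ang II (adjusted p = 0.21).

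Counted together, 1 of the 6 genes in the main fit was called with Ang II in WT hearts (Grb10), where 18.6% of all genes tested were called. Under saline 2 of 6 differed by genotype (Cdkn1c and Ndn), where 40.6% of all genes were called, and under Ang II the same 2 did, where 32.8% were. Between sexes 0 of 6 were called by edgeR and by DESeq2 (Ndn alone had an unadjusted p under 0.05, at 0.033), with 4.42% of all genes. Neither test of a sex difference, in the WT Ang II response or in the saline genotype difference, called any of the 11628 genes with edgeR; 751 and 644 had an unadjusted p under 0.05, and DESeq2 called 1 in each, none of the 6. In Tg hearts, the comparison that chose H19, 8.93% of all genes were called. No count of the 6 genes is given there, since the choice of H19 fixed part of it. In the fit over 23610 genes, 3 of 9 were called with Ang II in WT hearts (9.91% of all genes), 4 of 9 by genotype under saline (24.0%), 3 of 9 by genotype under Ang II (18.1%) and 1 of 9 by sex (2.22%). That fit takes in genes down to a mean count of 1. The 9 genes had median counts of 181 to 5030.5, so its shares are not a like background for them. In the main fit the counts in WT hearts and by genotype are near what the main fit's shares give for 6 genes. The median log2 fold change over all genes tested was between -0.01 and 0 in each of these comparisons.

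**Figure D4:**
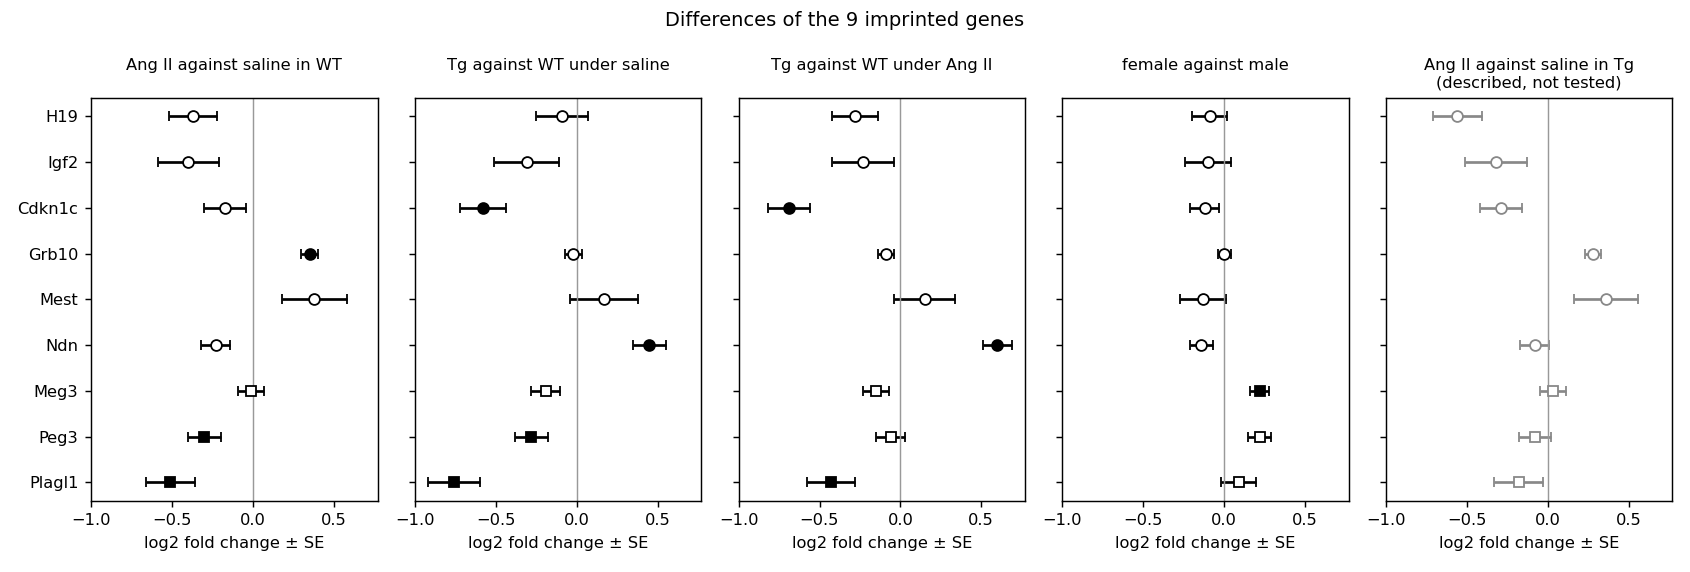
Log2 fold change ± SE on the x axis for each of the 9 genes on the y axis in 5 comparisons; circles come from the fit over 11628 genes, squares from that over 23610, and filled symbols were called at an adjusted p under 0.05. Grey symbols in the last panel are described and not tested. Cdkn1c and Plagl1 stand left of 0 and Ndn right of it in both genotype panels.

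Libraries of the same group differed from each other, and most pairs of the 9 genes varied with little relation. Over the 36 pairs of the 9 genes, the correlation across the 50 libraries after removing group means ran from -0.41 to 0.57, with a median of 0.06. The 3 highest were H19 with Plagl1 (Pearson 0.57, Spearman 0.54, and 0.57 without the 2 most extreme H19 libraries), Igf2 with Cdkn1c (0.48, 0.47 and 0.41) and H19 with Igf2 (0.47, 0.53 and 0.46). The lowest was Igf2 with Grb10 (-0.41, Spearman -0.29), and without library 238 it was -0.22. H19 with Grb10 was -0.31, and -0.17 without libraries 159 and 234. These points share the libraries and their depth, and they are given as descriptions.

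**Figure D5:**
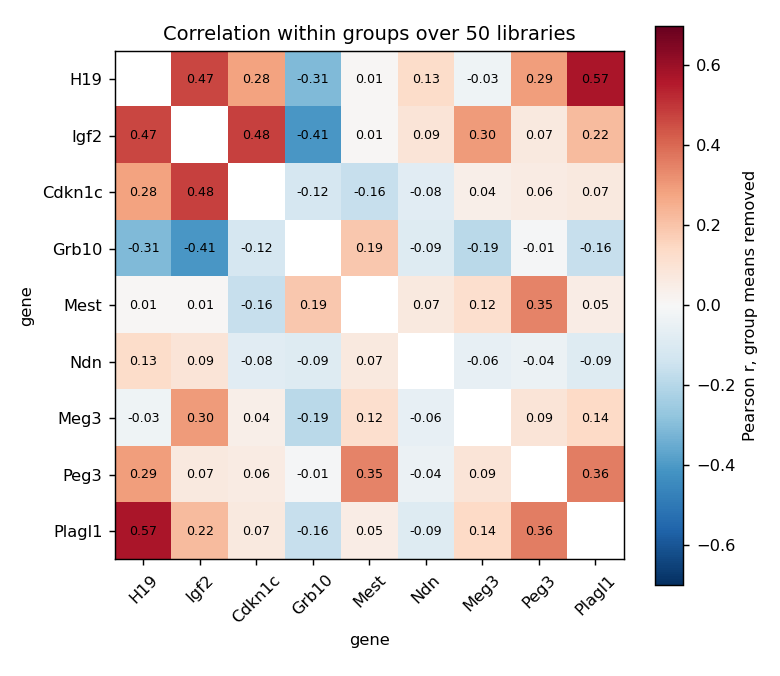
Pearson correlation of each pair of the 9 genes over 50 libraries after removing the mean of each group, both axes listing the genes, with blue below 0 and red above 0. The pairs H19 with Plagl1 (0.57), Igf2 with Cdkn1c (0.48) and H19 with Igf2 (0.47) are the highest.

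The search for like genes took only genes of the main fit, so Meg3, Peg3 and Plagl1 could not appear. Plagl1 correlated with H19 at 0.57 (Spearman 0.54). Among all genes of the main fit, those most like H19 within groups were Cwc27 (Pearson 0.58, Spearman 0.50), Tsen15 (0.58, 0.60), Hspa12a (0.57, 0.55), Gm11007 (0.56, 0.49) and Srsf9 (0.54, 0.52). Of these, 3 were also in the top 5 with FPKM as deposited, and 1, Hspa12a (0.71), with group means kept, where Igf2 (0.60) entered the top 5. Tsen15 also led for Igf2 (0.59, Spearman 0.62). For Cdkn1c the leaders were Lims2 (0.71), Inmt (0.68) and AU020206 (0.64). For Grb10 they were Xirp2 (0.69), Acta1 (0.66) and Vwf (0.63), of which Xirp2 and Acta1 are muscle genes known to rise under load. For Mest they were Fam111a (0.79), Casp8 (0.74) and Cd93 (0.74), and for Ndn Cyb561d2 (0.62), Fzd1 (0.58) and Nkd2 (0.54). With FPKM as deposited, 3 of 3 stayed among the leaders for Igf2 and Ndn, 2 of 3 for Cdkn1c and Mest and 1 of 3 for Grb10. With group means kept, 2 of 3 stayed for Grb10, 1 of 3 for Igf2, Cdkn1c and Mest, and 0 of 3 for Ndn.

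Other genes were read from lists of imprinted genes, and whether these are imprinted in the heart was not measured. Of 20 other genes listed as maternally expressed, 11 were tested, and 9 were below the FPKM minimum. Under saline 3 were called higher in Tg hearts and 1 lower (median -0.01): Tssc4 (0.26 ± 0.08, adjusted p = 0.0094), Qpct (0.36 ± 0.13, adjusted p = 0.018) and Igf2r (0.17 ± 0.07, adjusted p = 0.043) were higher and Trappc9 (-0.16 ± 0.06, adjusted p = 0.017) lower. With Ang II in WT hearts 0 were higher and 1 lower, Trappc9 (-0.24 ± 0.05, adjusted p = 0.0012). Igf2r, the receptor that carries IGF2 to the lysosome, averaged 14.1 scaled FPKM in WT saline hearts and 15.9 in Tg saline hearts. Over all genes 20.4% were called higher and 20.2% lower by genotype under saline, and 9.71% and 8.87% with Ang II in WT hearts.

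Of 27 other genes listed as paternally expressed, 11 were tested. Under saline 2 were called higher in Tg hearts and 3 lower (median 0.03), and under Ang II 2 higher and 2 lower (median -0.04). Slc38a4, an amino acid transporter, was higher in Tg hearts under saline (0.62 ± 0.10, adjusted p = 1.1e-06) and Ang II (0.57 ± 0.09, adjusted p = 1.6e-06), and it rose with Ang II in WT hearts (0.34 ± 0.09, adjusted p = 0.0066). Snrpn, a splicing factor gene of the same imprinted domain as Ndn, was lower in Tg hearts (-0.62 ± 0.09 under saline, adjusted p = 6.4e-07, and -0.42 ± 0.09 under Ang II, adjusted p = 0.00016), while Ndn was higher. Peg13, a noncoding RNA, was lower in Tg hearts under saline (-0.27 ± 0.07, adjusted p = 0.0011) and fell with Ang II in WT hearts (-0.35 ± 0.06, adjusted p = 0.00014). With Ang II in WT hearts the list gave 2 higher and 1 lower (median -0.14). Over all genes 20.4% were called higher and 20.2% lower by genotype under saline, and 16.4% in each direction under Ang II. For Ang II in WT hearts these shares were 9.71% and 8.87%.

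Of 19 genes of insulin-like growth factor signalling, the pathway of Igf2 and Grb10, 14 were tested. With Ang II in WT hearts 6 were called higher and 0 lower (median 0.15), among them the binding proteins Igfbp7 (0.64 ± 0.11, adjusted p = 5e-05) and Igfbp6 (0.58 ± 0.14, adjusted p = 0.0020), the RNA-binding protein Igf2bp2 (0.65 ± 0.16, adjusted p = 0.0026) and the receptor substrate Irs1 (0.36 ± 0.11, adjusted p = 0.012). Under saline 9 were higher in Tg hearts and 1 lower (median 0.29), led by Igfbp6 (0.95 ± 0.14, adjusted p = 6.1e-07) and Igfbp4 (0.47 ± 0.09, adjusted p = 2.6e-05). Grb14, the relative of Grb10, was the lower one (-0.31 ± 0.07, adjusted p = 4e-04), and it was lower under Ang II as well (-0.22 ± 0.06, adjusted p = 0.0075). Under Ang II 5 were higher in Tg hearts and 2 lower, beside 16.4% in each direction over all genes. For Ang II in WT hearts 9.71% of all genes were called higher and 8.87% lower, and by genotype under saline 20.4% and 20.2%. Between sexes 1 of the 14 was higher in females, Igf1r (0.19 ± 0.05, adjusted p = 0.020), beside 1.86% of all genes higher and 2.56% lower.

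Of 15 genes linked to imprints or to DNA methylation, its removal included, 11 were tested and 0 were called higher in any of the 5 comparisons. Under saline 5 were called lower in Tg hearts (median -0.13), led by Dnmt3a, a DNA methyltransferase (-0.26 ± 0.06, adjusted p = 0.00017), and Ctcf, the insulator protein that binds between Igf2 and H19 (-0.18 ± 0.04, adjusted p = 2e-04). Their means were 1.82 and 7.51 scaled FPKM in WT saline and 1.51 and 6.61 in Tg saline hearts. Among all genes tested, 20.2% were called lower by genotype under saline, 16.4% by genotype under Ang II and 8.87% with Ang II in WT hearts. Ctcf was also lower with Ang II in WT hearts (-0.13 ± 0.04, adjusted p = 0.013). Under Ang II 3 were lower in Tg hearts, Trim28 (-0.10 ± 0.03, adjusted p = 0.014), Dnmt3a (-0.15 ± 0.05, adjusted p = 0.025) and Ctcf (-0.10 ± 0.04, adjusted p = 0.025).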

How the data were processed

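RNA was sequenced from 50 left ventricles. Poly(A) RNA was made into dUTP paired-end libraries, per the labels' protocols. Tools named in the submitters' processing notes are cutadapt 1.9, FastQC, HISAT2 2.0.4 and StringTie 1.3.4d; the counting tool, its strand setting and the genome build are not given in the sources used here. The authors deposited a whole-number count and an FPKM value per gene and library. The authors' FPKM values are divided by length and library size. Of 35717 genes, 35599 were found by identifier in GENCODE M21 (GRCm38), 91.6% of them with identical positions. No 2 libraries of a group agreed within counting error.

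Counts were scaled by median of ratios and fitted with edgeR 4.0.16 (R 4.3.3) with 1 mean for each of 8 genotype, treatment and sex groups, sexes weighted equally. Levels are FPKM divided by a median-of-ratios factor (0.778 to 1.14). Correlations used log2(scaled FPKM + 1). Genes and lists were chosen with earlier results of these data known. All 9 genes are named in every comparison, with up to 4 tested genes of each list by p-value and the 3 to 5 genes most like each tested gene; Kcnq1ot1, Gm49394 and Vkorc1l1 were named after their values were seen. Values of 1 listed gene are not reported here. Alternatives were TMM, library size alone, DESeq2 1.42.0, limma 3.58.1 on log2(FPKM + 1) and on log2(FPKM + 0.1), other filters, 1 sex alone, a block for 10 clusters of library numbers, and left-out libraries. Tested on simulated data for Ang II in WT hearts with 11628 genes, the fit called 85% of log2 changes of 0.5, 98% of changes of 1 and 0.035% of unchanged genes. Each size was given to 100 genes, with 1 mean per gene and no other difference between groups. These shares are over genes of all levels and spreads and do not give the share for a single gene such as H19. P-values measure the spread between libraries.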

Additional observations from a re-analysis of the deposited data

Results flagged for a closer look

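Each gene was checked in each of the 8 groups of 5 to 7 libraries for a library that stood far from the others, and 5 of 72 such groups held one; chance alone flags about 5% of groups. Igf2 was 0.101 scaled FPKM in library 238, a Tg Ang II female, where the other 6 stood at 1.41 to 2.23; the count listed there under the overlapping gene Gm49394 was 550. Meg3 was 0.592 in library 239, a WT saline female, with the others at 0.386 to 0.445. Plagl1 was 0.595 in library 234, a WT Ang II male, with the others at 0.232 to 0.336, and H19 was at its group's highest value in the same library. Mest was 3.07 in library 165, a WT Ang II female, with the others at 0.491 to 1.41. Ndn was 1.88 in library 154, a Tg Ang II female, with the others at 0.943 to 1.33. Without library 165 the Ang II difference of Mest in WT hearts went from 0.38 to 0.19, and without library 154 the genotype difference of Ndn under Ang II was 0.54 and still called. What set these libraries apart was not tested.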

How the results depend on the processing

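Of the alternatives tried, scaling by library size alone moved the median gene most, by 0.14 in Tg against WT under saline. It called 4868 of 5787 genes higher there against 2376 of 4720 in the main fit. With limma on log2(FPKM + 1), 3993 of 5004 were called higher. Neither used the median-of-ratios factor, since limma ran on FPKM as deposited. Values that took the other sign, all of differences that were not called: H19 by genotype under saline was 0.03 with library size alone and 0.04 and 0.06 with limma (pseudocounts 1 and 0.1); Grb10 there was 0.12, 0.08 and 0.09, with 0.01 in males and 0 with the block for library numbers; Grb10 by sex was 0.05, 0.05 and 0.06, with -0.02 to 0.01 with 1 library left out; Peg3 by genotype under Ang II was 0.03, 0.01 and 0.02; Meg3 for Ang II in WT hearts was 0.04, 0.02 and 0.04, with 0.02 without libraries 329 and 847, 0.11 in females and -0.04 to 0.04 with 1 library left out; and Mest by genotype under Ang II was -0.15 in females. With 1 library left out, H19 ran from -0.45 to -0.29 for Ang II in WT hearts and from -0.34 to -0.20 for genotype under Ang II. The number of genes called for Ang II in WT hearts, 1 of 6, was 2 without library 238, 2 with Igf2 and Gm49394 joined (both chosen after seeing the data), 3 of 9 without the FPKM filter and 1 to 2 with 1 library left out. By genotype under saline, 2 of 6 became 0 in males and 4 of 9 without the filter, and by sex 0 of 6 became 1 of 9. For Ang II in Tg hearts no count of the 6 genes is given, because this contrast chose H19. Outside the males-only fits, where Cdkn1c and Ndn under saline lost theirs, the calls of Cdkn1c and Ndn by genotype and of Grb10 for Ang II in WT hearts kept direction and side of the threshold in every alternative run, and in all 50 fits with 1 library left out. Plagl1 under saline lost its call in females alone (-0.66, adjusted p = 0.051), and its other calls and both of Peg3 were lost with limma and library size alone. No paired analysis was possible because each library number occurs once. The causes were not tested. Plagl1 had the lowest median count of the 9 genes, 181, and the part of depth in its spread was not tested.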
